A study of Mus musculus with 12 samples.

Results

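The genes described here are the 10 that encode the transforming growth factor beta (TGF-beta) ligands Tgfb1, Tgfb2 and Tgfb3, their receptors Tgfbr1, Tgfbr2 and Tgfbr3, and the latent TGF-beta binding proteins Ltbp1, Ltbp2, Ltbp3 and Ltbp4. They were found by matching the Ensembl identifiers of the count files to mouse symbols, and all 10 were present among 46983 genes and passed the filter on low counts that left 14706 genes. Expression was measured by 3′-seq of RNA from the left ventricle (LV) of 12 mouse offspring at 12 weeks of age. The dams were FVB mice, either non-diabetic or made diabetic with streptozotocin, and all were wild type and mated with males that carried 1 deleted copy of Hif1a, the oxygen-regulated subunit of hypoxia-inducible factor 1. The 4 groups of 3 libraries were therefore Wt from non-diabetic pregnancy, Wt from diabetic pregnancy, Hif1a+/- from non-diabetic pregnancy and Hif1a+/- from diabetic pregnancy. The deletion is global and heterozygous, so it was present in each cell type of the heart and was not limited to cardiomyocytes. Per the study's methods, the LVs of 1 group came from different litters.

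The libraries held between 16132442 and 39812939 counts. The 8 cardiomyocyte markers summed to 77544 to 87426 counts per 1000000 (CPM) over the 12 libraries, while the 5 lymphocyte markers summed to at most 2.07 CPM. Whether the 3′ reads of Hif1a lie inside or outside the deleted part was not tested, so its counts could not check the genotype labels. Its CPM ranged from 55.7 to 71.8 in non-diabetic Wt and from 47.9 to 59.3 in diabetic Wt. Hif1a ranged from 78.8 to 89.4 CPM in non-diabetic Hif1a+/- and from 64.8 to 81.5 CPM in diabetic Hif1a+/-. It was thus higher in the libraries labelled Hif1a+/- (log2 fold change over both pregnancies 0.43 ± 0.09 SE, edgeR adjusted p = 0.596, DESeq2 adjusted p = 0.0314). The labels call the offspring female, whereas the study's methods describe males. Replicate 72 of diabetic Hif1a+/- stood apart, with 3599 counts of Xist against 5 to 176 in the other 11 libraries, and with at most 10 counts of each of 4 Y-linked genes against 296 to 3108. By these transcripts the other 11 libraries read as male, against their label, and replicate 72 as female. The diabetic Hif1a+/- group thus held libraries of both sexes. Replicate 25 of non-diabetic Wt had 7323 CPM of the 5 red cell markers against 185 to 1771 CPM in the other 11. The differences by diabetes in Hif1a+/- hearts of Tgfbr2, Ltbp2, Ltbp3 and Ltbp4 are given with and without replicate 72.

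TGF-beta is secreted in a latent form. The mature cytokine stays wrapped in its own propeptide, which in most cells is bound to an LTBP and is through it anchored to fibrillin microfibrils of the extracellular matrix until integrins, proteases or mechanical force release it. The free ligand binds the type II receptor TGFBR2, which recruits and phosphorylates the type I receptor TGFBR1, and TGFBR1 then phosphorylates SMAD2 and SMAD3. TGFBR3, also called betaglycan, is a co-receptor without kinase activity that presents the ligands, TGF-beta 2 above all. In the heart the pathway is best known for driving fibroblasts to deposit collagen and for its part in the formation of valves and septa.

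Since 1 allele of Hif1a was deleted in 2 of the groups, the 250 bases before the transcription start of the members were read from RefSeq (build GRCm38.p6, the reference strain and not FVB) and searched for the core of the HIF binding motif, ACGTG or GCGTG, on both strands, so that a palindromic CACGTG counts as a pair of overlapping matches. RefSeq windows were found for 8 of the 10 members, and Tgfb3 and Tgfbr3 are named only. Of the 12 windows of these 8 members, 8 held the motif, with 1 match counted in a pair of Ltbp4 windows that overlap, beside 38.6% of the 32851 windows of all genes. The windows of Tgfbr2, the member with the lowest p in the test of any difference among the 4 groups, and of the ligands Tgfb1 and Tgfb2 are shown, 5′ to 3′ on the strand of the gene, with the matches in capitals. They lie at chr9:116175364-116175613 (minus strand), chr7:25686752-25687001 (plus strand) and chr1:186705990-186706239 (minus strand).
Tgfbr2: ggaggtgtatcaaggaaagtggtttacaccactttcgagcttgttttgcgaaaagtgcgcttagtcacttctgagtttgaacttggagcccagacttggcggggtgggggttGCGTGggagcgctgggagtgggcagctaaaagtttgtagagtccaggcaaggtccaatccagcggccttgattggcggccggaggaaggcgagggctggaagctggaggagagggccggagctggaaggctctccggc
Tgfb1: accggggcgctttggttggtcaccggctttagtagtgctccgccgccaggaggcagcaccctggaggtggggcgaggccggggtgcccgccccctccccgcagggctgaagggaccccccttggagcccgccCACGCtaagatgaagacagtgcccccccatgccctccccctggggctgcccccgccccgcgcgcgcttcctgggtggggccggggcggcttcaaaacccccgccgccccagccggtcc
Tgfb2: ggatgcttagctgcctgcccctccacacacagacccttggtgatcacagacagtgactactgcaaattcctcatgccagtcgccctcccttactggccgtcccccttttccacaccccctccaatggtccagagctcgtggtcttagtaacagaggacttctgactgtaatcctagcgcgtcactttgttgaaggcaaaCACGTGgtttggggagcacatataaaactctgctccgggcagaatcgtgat
The match of Tgfbr2 starts 138 bases before the transcription start, that of Tgfb1 118 bases and that of Tgfb2 51 bases before it. A match is a description of the letters and no evidence that the factor binds there.

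All 10 members were expressed in the LV. Since 3′-seq yields reads near the end of a transcript whatever its length, levels of different genes were compared both as CPM and as CPM per kilobase of exon. Ltbp4 was the most abundant on both scales (220 CPM and 34.0 CPM per kilobase over the 12 libraries) and Ltbp2 the least (6.17 CPM and 0.754 CPM per kilobase). Among the ligands Tgfb1 led with 34.6 CPM and 6.87 CPM per kilobase, followed by Tgfb3 with 21.0 CPM and 6.21 CPM per kilobase and Tgfb2 with 16.8 CPM and 2.90 CPM per kilobase. Among the receptors Tgfbr2 had 68.5 CPM and 8.37 CPM per kilobase, Tgfbr3 54.3 CPM and 8.30 CPM per kilobase, and Tgfbr1 26.0 CPM and 3.98 CPM per kilobase. The coefficient of variation within groups, as the root mean square over the 4 groups, lay between 4.39% for Tgfb3 and 26.6% for Ltbp2. That of Tgfbr2 was 8.24%, with 15.3% in diabetic Hif1a+/- hearts and at most 5.3% in the other groups. Counting error at the lowest raw count was 3.23% for Tgfbr2 (956 counts) and 10.5% for Ltbp2 (90 counts), so that the spread between hearts and not depth limited the comparisons of all members but Tgfb3, for which the counting error at its lowest count, 5.71%, was larger than that spread.

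**Figure D1:**
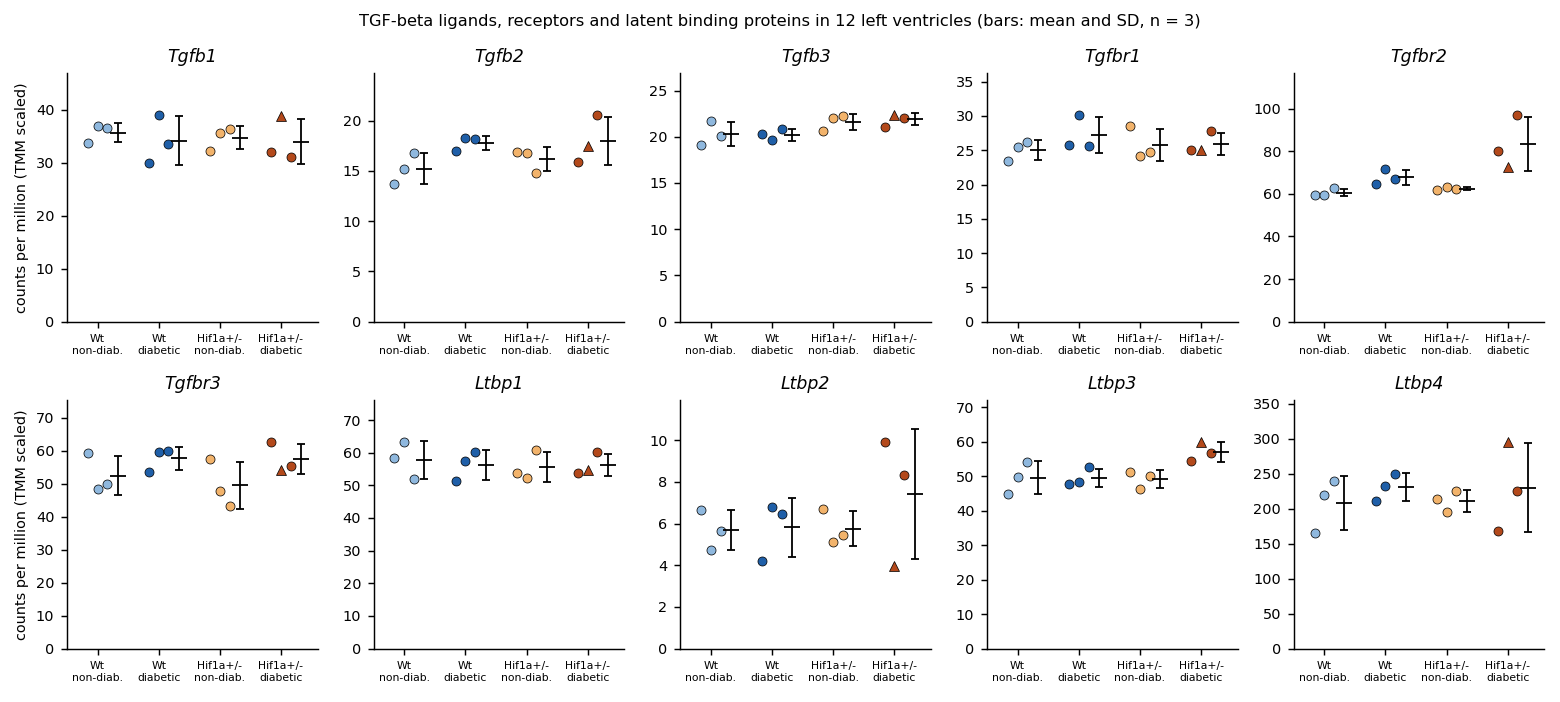
CPM (TMM scaled, linear axes from 0) of the 10 members in 12 LVs, with 1 point per library, the triangle for replicate 72, and the mean with SD of each group of 3 beside the points. Tgfbr2 in diabetic hearts, from 64.7 to 97.2 CPM, lies above Tgfbr2 in non-diabetic hearts, from 59.5 to 63.3 CPM, while the groups overlap for most other members.

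In non-diabetic Wt hearts Tgfb1 (chr7:25687002-25705077, plus strand), which encodes the TGF-beta isoform best known from fibrosis, measured 33.7, 37.0 and 36.5 CPM in replicates 25, 42 and 89. In diabetic Wt hearts it measured 30.0, 39.1 and 33.5 CPM in replicates 50, 7 and 80. In non-diabetic Hif1a+/- hearts it measured 32.2, 35.6 and 36.3 CPM in replicates 14, 32 and 44, and in diabetic Hif1a+/- hearts 32.0, 38.8 and 31.1 CPM in replicates 66, 72 and 77. The 4 groups overlapped throughout. The difference by diabetes, averaged over the genotypes, was -0.05 on the log2 scale with a 95% interval from -0.22 to 0.13 (edgeR adjusted p = 0.837). With 3 hearts per group, differences inside that interval remained compatible with the data. By quantitative PCR with more LVs per group, the study reported lower Tgfb1 mRNA after diabetic pregnancy in both genotypes.

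Tgfb2 (chr1:186622792-186705989, minus strand), the isoform that needs betaglycan for efficient binding, measured 13.7, 15.2 and 16.8 CPM in non-diabetic Wt and 17.0, 18.3 and 18.2 CPM in diabetic Wt hearts. It measured 16.9, 16.8 and 14.8 CPM in non-diabetic Hif1a+/- and 15.9, 17.5 and 20.6 CPM in diabetic Hif1a+/- hearts. All diabetic Wt hearts were above all non-diabetic Wt hearts, as were those of 2.14% of all genes, whereas the Hif1a+/- groups overlapped. Averaged over the genotypes, Tgfb2 was 1.14-fold higher after diabetic pregnancy (log2 0.19 ± 0.08 SE, 95% interval 0.01 to 0.37, unadjusted p = 0.0397), which did not pass the adjustment over all genes (edgeR adjusted p = 0.428). Tgfb3 ranged from 19.1 to 22.4 CPM over the 12 libraries. Its diabetic Hif1a+/- hearts, from 21.1 CPM, lay above its diabetic Wt hearts, up to 20.8 CPM, while the other pairs of groups overlapped. The share of all genes with that separation was not computed. The Tgfb3 log2 difference between these 2 groups was 0.11 ± 0.08 SE (edgeR unadjusted p = 0.209, adjusted p = 0.863). Its difference by diabetes averaged over genotypes had a 95% interval from -0.12 to 0.13 (log2). Exons of Tgfb2 and Tgfb3 overlap genes on the other strand, and the strand setting of the authors' counting is not given in the sources used here, so reads of these partners could not be told apart.

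Tgfbr1, the type I receptor kinase that phosphorylates SMAD2 and SMAD3, measured 23.4, 25.5 and 26.2 CPM in non-diabetic Wt, 25.7, 30.2 and 25.6 CPM in diabetic Wt, then 28.5, 24.2 and 24.8 CPM in non-diabetic Hif1a+/- and 25.0, 25.0 and 27.8 CPM in diabetic Hif1a+/- hearts. The groups overlapped, and the difference by diabetes had 95% intervals from -0.10 to 0.33 in Wt and from -0.21 to 0.22 in Hif1a+/- (log2). Tgfbr3, the co-receptor, ranged from 48.3 to 59.3 CPM in non-diabetic Wt, from 53.6 to 59.9 CPM in diabetic Wt, from 43.3 to 57.5 CPM in non-diabetic Hif1a+/- and from 54.2 to 62.8 CPM in diabetic Hif1a+/- hearts. It was 1.13-fold higher after diabetic pregnancy averaged over the genotypes (log2 0.18 ± 0.08 SE, unadjusted p = 0.0501, edgeR adjusted p = 0.442), with overlapping groups.

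Tgfbr2 (ENSMUSG00000032440, chr9:116084293-116175360 on the minus strand of GRCm38) encodes the type II receptor that binds the ligand and starts the kinase cascade. It measured 59.5, 59.5 and 62.7 CPM in non-diabetic Wt hearts and 61.9, 63.3 and 62.2 CPM in non-diabetic Hif1a+/- hearts, 2 groups that overlapped. It measured 64.7, 71.7 and 67.0 CPM in diabetic Wt hearts and 79.9, 72.5 and 97.2 CPM in diabetic Hif1a+/- hearts. The 6 diabetic hearts were thus all above the 6 non-diabetic hearts, and the 3 diabetic Hif1a+/- hearts were above all 9 others. All diabetic hearts were above all non-diabetic ones for 37 genes (0.252% of 14706), the diabetic Hif1a+/- hearts were above the other 9 libraries for 174 genes (1.18%), and both held for 5 genes (0.034%), 1 of them Tgfbr2. The joint pattern was not a planned comparison and is the order that Tgfbr2 shows, so its share is a description and not a test. The gap between the lowest diabetic heart (64.7 CPM) and the highest non-diabetic one (63.3 CPM) was smaller than the SD within the diabetic Hif1a+/- group.

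In Hif1a+/- hearts Tgfbr2 was 1.33-fold higher after diabetic than after non-diabetic pregnancy (log2 0.41 ± 0.10 SE, 95% interval 0.20 to 0.63, unadjusted p = 0.000984). This placed it at rank 69 of 14706 genes, with an edgeR adjusted p = 0.210, above the threshold of 0.1, and a DESeq2 adjusted p = 0.0277, below it. In Wt hearts the same comparison gave 1.12-fold (log2 0.16 ± 0.10 SE, 95% interval -0.05 to 0.38, unadjusted p = 0.123). The difference between these effects, the genotype by diabetes interaction, was 0.25 ± 0.14 SE (log2, 95% interval -0.05 to 0.55, unadjusted p = 0.0942, edgeR adjusted p = 0.998), so the effect of diabetes was not shown to differ between the genotypes. The interaction was 0.13 without replicate 77 of diabetic Hif1a+/- and 0.35 without replicate 72. Averaged over both genotypes Tgfbr2 was 1.22-fold higher after diabetic pregnancy (log2 0.29 ± 0.07 SE, unadjusted p = 0.00112, edgeR adjusted p = 0.238, DESeq2 adjusted p = 0.0361).

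Between the genotypes, Tgfbr2 was 1.23-fold higher in Hif1a+/- than in Wt hearts after diabetic pregnancy (log2 0.29 ± 0.10 SE, unadjusted p = 0.00999, edgeR adjusted p = 0.862, DESeq2 adjusted p = 0.781; log2 0.17 without replicate 77 and 0.39 without replicate 72) and 1.03-fold after non-diabetic pregnancy (log2 0.04 ± 0.10 SE, edgeR adjusted p = 1.0). Diabetic Hif1a+/- hearts exceeded non-diabetic Wt hearts 1.37-fold (log2 0.46 ± 0.10 SE, edgeR adjusted p = 0.315, DESeq2 adjusted p = 0.0217). Without replicate 72, the log2 difference by diabetes in Hif1a+/- hearts was 0.51 (edgeR adjusted p = 0.0892, where edgeR called 38 genes, DESeq2 adjusted p = 0.00121), and without replicate 77, the highest library, it was 0.29 (edgeR adjusted p = 0.516, DESeq2 adjusted p = 0.230). The call thus depended on the tool and on single libraries, while the direction did not change in any alternative run.

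**Figure D2:**
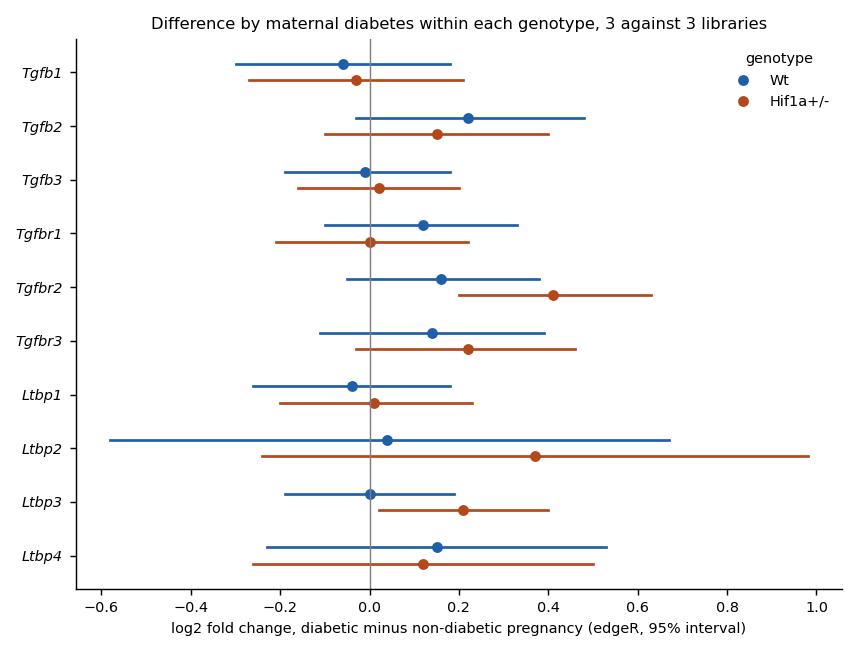
Log2 fold change of each member, diabetic minus non-diabetic pregnancy, in Wt (blue) and Hif1a+/- (brown) hearts, as edgeR estimates (points) with 95% intervals (lines) from 3 against 3 libraries. The interval lies above 0 for Tgfbr2 (0.20 to 0.63) and Ltbp3 (0.02 to 0.40) in Hif1a+/- hearts and includes 0 for the 10 members in Wt hearts.

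The balance of receptor transcripts was also read within each library, where scaling between libraries plays no part. The ratio of Tgfbr2 to Tgfbr1 counts was 2.54, 2.33 and 2.39 in non-diabetic Wt and 2.51, 2.37 and 2.62 in diabetic Wt hearts. It was 2.17, 2.61 and 2.51 in non-diabetic Hif1a+/- hearts, and 3.19, 2.90 and 3.49 in diabetic Hif1a+/- hearts. The 3 diabetic Hif1a+/- hearts had the highest ratios of the 12, and the other 3 groups overlapped. Both ratios read here reuse the Tgfbr2 counts and are no separate support. Tgfbr2 CPM was itself highest in these 3 libraries, as was that of 1.18% of all genes. How often ratios of other genes separate in this way was not computed. The ratio of Tgfbr2 to Tgfbr3 counts, from 1.00 to 1.75, overlapped between diabetic Hif1a+/- hearts (1.27, 1.34 and 1.75) and non-diabetic Hif1a+/- hearts (1.08, 1.33 and 1.44). All diabetic Hif1a+/- hearts lay above the 6 Wt hearts, by a margin of 1.27 against 1.25.

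Some marker lists of cell types differed between diabetic Hif1a+/- hearts and the others, in both directions. The lists were chosen with earlier results of these data known. From these libraries the study had already listed Pi16, Cd248, Mfap5, Clec3b, C1qa, C1qb, C1qc, Mrc1 and Lyz2 as changed in diabetic Hif1a+/- hearts, and Tgfbr2 as well. Their joint rise in that group is therefore no separate support. The 6 markers of adventitial fibroblasts, Pi16 and Cd248 among them, summed to 291 to 527 CPM in diabetic Hif1a+/- hearts against 155 to 205 CPM in the other 9, with 4 of the 6 separately above all 9, none at 0, and a median log2 difference by diabetes in Hif1a+/- hearts of 0.91. The 9 macrophage markers summed to 538 to 808 CPM in diabetic Hif1a+/- hearts and to 269 to 612 CPM in the others, which overlap. Of these markers 1 was separately above all other libraries and none was at 0, and the median log2 difference was 0.87. The study's immunostaining found more macrophages in the LV after diabetic pregnancy in Wt hearts only, a count of stained cells and not of RNA. The 8 general fibroblast markers summed to 3137 to 4199 CPM in diabetic Hif1a+/- hearts. These sums overlapped with those of non-diabetic Hif1a+/- (2906 to 3199 CPM) and of diabetic Wt hearts (3071 to 4671 CPM). The median log2 difference of this list by diabetes in Hif1a+/- hearts was 0.31. Of its genes, 3 of the 8 had an unadjusted p under 0.05 on the higher side and 0 on the lower side. The cardiomyocyte list differed by a median log2 of 0.04. The 5 pericyte markers summed to 1118 to 1251 CPM in diabetic against 1293 to 1403 CPM in non-diabetic Hif1a+/- hearts, 2 of the 5 with an unadjusted p under 0.05 on the lower side, and a median log2 difference over the genes that was on the higher side (0.11). The 6 smooth muscle markers had a median log2 difference of -0.36, with 2 of the 6 at an unadjusted p under 0.05 on the lower side and sums that overlapped (393 to 468 against 433 to 497 CPM). In diabetic Wt hearts the adventitial sum of 157 to 205 CPM overlapped with the 155 to 194 CPM of non-diabetic Wt. In these bulk samples more cells of a type and more RNA per cell cannot be told apart, and the part of these cell types in the level of Tgfbr2 was not tested.

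**Figure D3:**
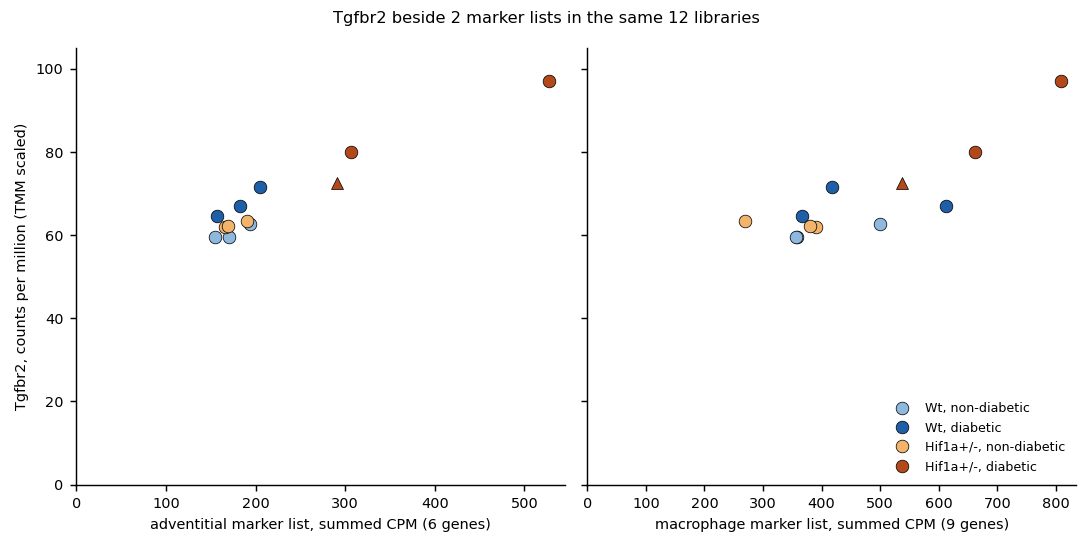
Tgfbr2 CPM (vertical axis, from 0) against the summed CPM of the adventitial (left) and macrophage (right) marker lists (horizontal axes, from 0) in the 12 libraries, coloured by group, with the triangle for replicate 72. The diabetic Hif1a+/- hearts lie to the right of all others for the adventitial list (291 to 527 against at most 205 CPM). On that axis the diabetic Wt hearts (157 to 205 CPM) overlap with the non-diabetic Wt hearts (155 to 194 CPM).

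Of the latent binding proteins, Ltbp3 (chr19:5740904-5758532, plus strand) encodes a carrier of latent TGF-beta that is known above all from bone and teeth. It measured 44.8, 49.8 and 54.2 CPM in non-diabetic Wt, 47.8, 48.4 and 52.6 CPM in diabetic Wt hearts. In non-diabetic Hif1a+/- hearts it measured 51.3, 46.3 and 50.2 CPM, and these 3 groups overlapped. In diabetic Hif1a+/- hearts it measured 54.4, 60.1 and 56.8 CPM, above all 9 others by a margin of 54.4 against 54.2 CPM. The difference by diabetes in Hif1a+/- hearts was 1.16-fold (log2 0.21 ± 0.09 SE, 95% interval 0.02 to 0.40, unadjusted p = 0.0330, edgeR adjusted p = 0.391, DESeq2 adjusted p = 0.352) and without replicate 72 the log2 difference was 0.18 (edgeR adjusted p = 0.637), and in Wt hearts the 95% interval ran from -0.19 to 0.19.

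Ltbp1, the most widely studied carrier of the latent complex, ranged from 51.2 to 63.4 CPM over the 12 libraries with all groups overlapping, and its difference by diabetes averaged over genotypes had a 95% interval from -0.16 to 0.14 (log2). Ltbp4, a binder of elastic fibres that carries latent TGF-beta 1 only, measured 165, 219 and 239 CPM in non-diabetic Wt, 211, 233 and 250 CPM in diabetic Wt, 214, 195 and 225 CPM in non-diabetic Hif1a+/- and 168, 296 and 225 CPM in diabetic Hif1a+/- hearts. Both the second lowest and the highest of the 12 values thus belonged to diabetic Hif1a+/- hearts, the highest to replicate 72. Its log2 difference by diabetes in Hif1a+/- hearts was 0.12 with all libraries and -0.10 without replicate 72. Ltbp2, which binds fibrillin but does not bind latent TGF-beta, measured 9.94, 3.96 and 8.35 CPM in diabetic Hif1a+/- hearts, where replicate 72 was the lowest of the 12 libraries and the other 2 were the highest. Its log2 difference by diabetes in Hif1a+/- hearts was 0.37 ± 0.28 SE (edgeR adjusted p = 0.601), and it ran from 0.09 without replicate 66 to 0.68 without replicate 72. Its exons share 764 bases with a gene on the other strand, and those of Tgfbr3 share 297 bases with one on the same strand.

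edgeR called none of the 10 members in any of the 9 comparisons, as it called 0.0% of all genes in each of them. In Wt hearts, diabetic against non-diabetic, no member had an unadjusted p under 0.05 (2.78% of all genes did) and DESeq2 called none (0.0148% of all genes). In Hif1a+/- hearts Tgfbr2 and Ltbp3 had an unadjusted p under 0.05 (12.0% of all genes) and DESeq2 called Tgfbr2 (1.44%). The medians of the 10 log2 differences were 0.08 in Wt and 0.14 in Hif1a+/- hearts, beside 0.01 and -0.01 over all genes tested, and 9 of the 10 members were on the higher side in Hif1a+/- hearts, where 7200 of the 14706 genes were. The pair of members above all non-diabetic Hif1a+/- hearts in the 3 diabetic ones, Tgfbr2 and Ltbp3, stands beside 11.2% of all genes.

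Averaged over the genotypes, Tgfb2 and Tgfbr2 had an unadjusted p under 0.05 for diabetes (11.3% of all genes), and DESeq2 called Tgfbr2 (1.46%). For diabetic Hif1a+/- against non-diabetic Wt, Tgfbr2 and Ltbp3 had an unadjusted p under 0.05 (8.85%) and DESeq2 called Tgfbr2 (0.453%). In the test of any difference among the 4 groups Tgfbr2 alone among the members had an unadjusted p under 0.05 (edgeR adjusted p = 0.377, beside 6.0% of all genes), and DESeq2 called it (adjusted p = 0.0187, beside 0.76%). These comparisons share libraries with each other. Between genotypes after diabetic pregnancy Tgfbr2 and Ltbp3 had an unadjusted p under 0.05 (5.35%) and DESeq2 called neither (0.155%). After non-diabetic pregnancy no member had one (0.959%) and none was called by DESeq2 (0.00369%). For the genotype averaged over pregnancies only Tgfbr2 had an unadjusted p under 0.05 (2.69%) with no member called by DESeq2 (0.0259%), and for the interaction no member had one (2.52%) and none was called by DESeq2 (0.0%).

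The other genes of the pathway were counted in lists of 9 further receptors of the family, 8 Smads, 15 regulators of Smads, 24 matrix proteins, integrins and proteases that hold or activate latent TGF-beta, and 21 genes known to respond to it. edgeR called no gene of these lists in any comparison. In Hif1a+/- hearts, diabetic against non-diabetic, the Smads had a median log2 difference of -0.15 with 1 of 8 on the higher side, and the regulators a median of -0.10 with 5 of 14 tested. The list on matrix and activation had a median of 0.15 with 18 of 24 on the higher side, and the responding genes 0.14 with 16 of 21, beside -0.01 over all genes. In Wt hearts the medians were -0.05, -0.02, -0.01 and 0.01. The further receptors had medians of 0.02 in Wt and -0.04 in Hif1a+/- hearts.

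**Figure D4:**
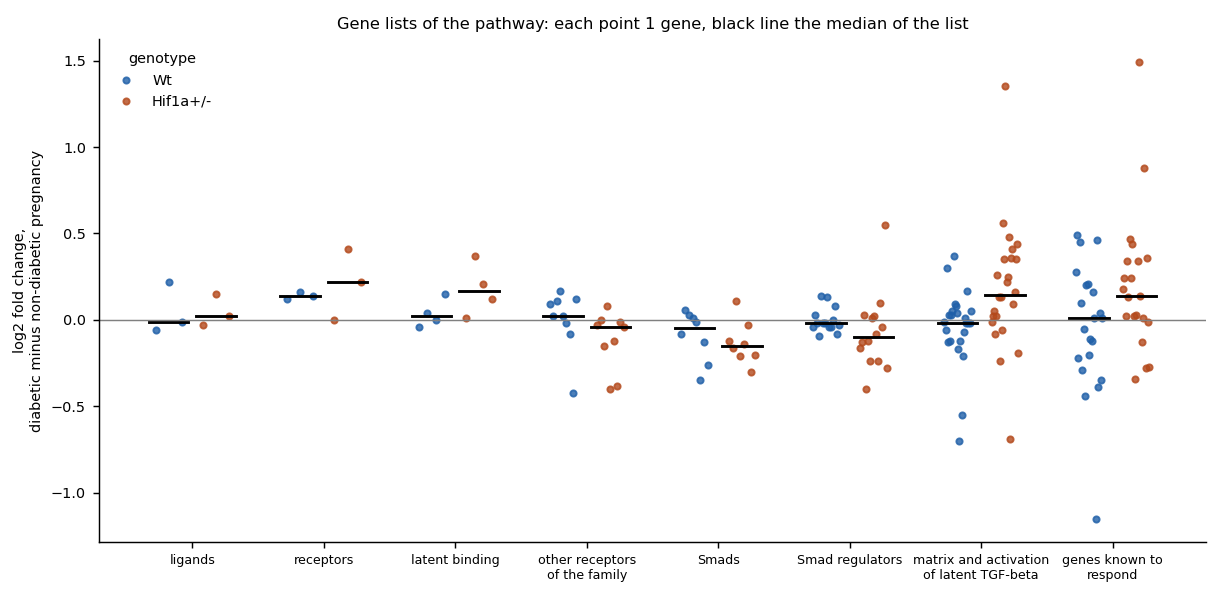
Log2 fold change, diabetic minus non-diabetic pregnancy, of each gene of 8 lists (1 point per gene, the black line the median) in Wt (blue) and Hif1a+/- (brown) hearts. In Hif1a+/- hearts the medians of the matrix and responding lists were 0.15 and 0.14 and those of the Smads and their regulators -0.15 and -0.10.

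Of the 3 genes named per list by their p among the 4 groups, Smad4, the partner common to all receptor-regulated Smads, was lower in diabetic than in non-diabetic Hif1a+/- hearts (log2 -0.21 ± 0.09 SE, edgeR adjusted p = 0.412), with 57.9, 59.9 and 58.0 CPM against 63.4, 68.0 and 71.5 CPM. Smad3 and Smad2, the receptor-regulated Smads of TGF-beta, had log2 differences of 0.11 ± 0.14 and -0.16 ± 0.11 SE. Among the further receptors, the activin receptor Acvr2a had -0.38 ± 0.14 SE (edgeR adjusted p = 0.356), and the bone morphogenetic protein receptors Bmpr1a and Bmpr2 had -0.40 ± 0.20 and -0.12 ± 0.11 SE. Map3k7, the TGF-beta activated kinase TAK1, and Usp15, a deubiquitinase that acts on the receptors and Smads, had -0.28 ± 0.09 and -0.24 ± 0.07 SE (edgeR adjusted p = 0.299 and 0.295). Dab2, an adaptor that links receptors to Smads and is abundant in macrophages, measured 57.0, 59.2 and 74.3 CPM in diabetic Hif1a+/- hearts against 49.2, 37.4 and 43.2 CPM in non-diabetic Hif1a+/- hearts (log2 0.55 ± 0.14 SE, edgeR adjusted p = 0.220, DESeq2 adjusted p = 0.0369).

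Fbn1, fibrillin 1, forms the microfibrils to which LTBPs attach. It measured 74.0, 87.4 and 98.6 CPM in non-diabetic Wt and 47.2, 73.6 and 56.3 CPM in diabetic Wt hearts, a log2 difference of -0.55 ± 0.16 SE (edgeR adjusted p = 1.0). It measured 88.0, 89.1 and 88.7 CPM in non-diabetic and 118, 107 and 145 CPM in diabetic Hif1a+/- hearts, a log2 difference of 0.48 ± 0.15 SE (edgeR adjusted p = 0.299). After diabetic pregnancy it was 2.09-fold higher in Hif1a+/- than in Wt hearts (log2 1.06 ± 0.16 SE, edgeR adjusted p = 0.161, DESeq2 adjusted p = 1.35e-06). The protease Mmp14 showed -0.70 ± 0.19 SE in Wt and 0.22 ± 0.18 SE in Hif1a+/- hearts, and Mmp9, a gelatinase that can cleave latent TGF-beta, 1.35 ± 0.41 SE in Hif1a+/- hearts (DESeq2 adjusted p = 0.0801), with 3.44, 6.73 and 1.94 CPM in the diabetic and 2.26, 0.958 and 1.41 CPM in the non-diabetic ones. The highest of these Mmp9 values was that of replicate 72, and replicate 77 (1.94 CPM) lay below the highest non-diabetic one.

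Of the responding genes, Timp1, an inhibitor of matrix metalloproteinases, measured 4.52, 3.04 and 4.77 CPM in diabetic Hif1a+/- hearts and 1.71, 1.18 and 1.46 CPM in non-diabetic Hif1a+/- hearts, with no overlap. It was 2.81-fold higher (log2 1.49 ± 0.24 SE, edgeR adjusted p = 0.124, DESeq2 adjusted p = 0.000503). Loxl2, a collagen cross-linking oxidase, and Col1a1, the alpha 1 chain of type I collagen, had log2 differences of 0.34 ± 0.17 and 0.47 ± 0.20 SE in Hif1a+/- hearts and of -0.11 ± 0.17 and -0.29 ± 0.20 SE in Wt hearts. Col1a1 measured 167, 276 and 188 CPM in diabetic and 127, 150 and 180 CPM in non-diabetic Hif1a+/- hearts, so these groups overlapped. Its highest value was that of replicate 72, and its difference without that library is not given here. Col1a1 is also 1 of the general fibroblast markers.

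Among the 45 pairs of members, Pearson's r of log2(CPM + 1) across the 12 libraries ranged from -0.52 to 0.71 with a median of 0.17. Tgfb2 and Tgfbr2 had r = 0.71 (permutation p = 0.00943, adjusted over the 45 pairs 0.384) and Spearman's rho = 0.71 (permutation p = 0.0125, adjusted 0.363), with r = 0.65 for deviations from the group means and r = 0.34 without the 2 libraries farthest from the median of Tgfb2, on which the relation thus rested. Tgfbr2 and Ltbp3, the 2 members whose diabetic Hif1a+/- hearts lay above the other 9 libraries, had r = 0.61 (permutation p = 0.0343, adjusted 0.384) and rho = 0.59 (permutation p = 0.0457, adjusted 0.416), and r = -0.07 within groups. Ltbp3 and Ltbp4 had r = 0.60 overall and 0.83 within groups, and 0.09 without the 2 farthest libraries. No pair passed an adjusted p of 0.1.

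Over all genes tested, those most like a member across the 12 libraries were Fstl1 and Cd55 for Tgfbr2 (r = 0.96 and 0.95, and 0.94 for both within groups), Gusb and Dhrs3 for Ltbp3 (r = 0.96 and 0.95), Src and Smoc2 for Ltbp4 (r = 0.94 and 0.93), Xdh and Fas for Tgfbr3 (r = 0.92 and 0.91), and Hmcn2 and Parp3 for Ltbp2 (r = 0.92 and 0.90). They were Lrrc1 and Lrrc36 for Tgfb1 (r = 0.92 and 0.90), Gins2 and Neurl3 for Tgfb3 (r = 0.91 and 0.88), Cd200 and Mboat7 for Tgfb2 (r = 0.90 and 0.89), and Mypopos and Rgl2 for Tgfbr1 (r = 0.88 and 0.87). These are the highest values over all 14706 genes tested and are given as a description.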

How the data were processed

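RNA of 12 LVs was sequenced as 3′-seq libraries. The authors trimmed the reads and removed ribosomal and mitochondrial ones, aligned the rest to GRCm38 with STAR 2.5.2b (annotation GENCODE M8) and counted reads per gene with HTSeq. The deposited counts are whole reads per gene and were tested as they are. The deposited normalized signal, each count divided by the DESeq2 size factor of its library, entered 1 alternative only. Between 12.37% and 17.02% of the alignments tallied per library were not unique and belong to no gene. Tally lines were left out. Genotype, pregnancy and the animal number, used as the replicate name, were taken from the sample labels.

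Counts were tested with the quasi-likelihood test of edgeR 4.0.16 (R 4.3.3) with TMM scaling, the default filter on low counts, 1 mean per group and all 12 libraries in 1 fit. The Benjamini-Hochberg adjustment ran over 14706 genes, with the threshold of 0.1 that the study used. The biological coefficient of variation was 13.7%. DESeq2 1.42.0, limma 3.58.1, other scalings and filters, and leaving out each library were alternatives. Correlations were tested with 100000 permutations of log2(CPM + 1). Pairs of libraries of 1 group differed by at least 5.82 in chi-square per gene, above the value of sampling noise. The scripts were tested on simulated data. The members and all gene lists were chosen with earlier results of these data known. Named genes were the members, the 3 genes of each list with the smallest p among the 4 groups, and the 2 genes most correlated with each member (those of Ltbp1 are not reported here). Coordinates and symbols are those of GENCODE M21 (GRCm38), and promoter sequences those of RefSeq.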

Additional observations from a re-analysis of the deposited data

Results flagged for a closer look

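On the scale of log2(CPM + 1), the 3 diabetic Wt hearts lay below the mean of non-diabetic Wt hearts for 2 of the named genes of the wider pathway. In the same 2 genes the 3 diabetic Hif1a+/- hearts lay above the mean of non-diabetic Hif1a+/- hearts. For Fbn1 the difference between these mean shifts was 1.02, and the interaction term of edgeR was 1.03 ± 0.22 SE (unadjusted p = 0.00038, edgeR adjusted p = 0.998, DESeq2 adjusted p = 0.108). For Col1a1 the difference was 0.72, and the interaction term was 0.76 ± 0.28 SE (unadjusted p = 0.0184, edgeR adjusted p = 0.998). The highest Col1a1 value of the diabetic Hif1a+/- hearts, 276 CPM, was that of replicate 72. Neither interaction passed the adjustment over all genes. Col3a1, a responding gene that is not among the named ones, had log2 differences by diabetes of -0.44 in Wt and 0.44 in Hif1a+/- hearts. Their edgeR unadjusted p was 0.0965 and 0.0947, and its single libraries are not given here. Of the 10 members, no gene moved in opposite directions in this way, and no member had an interaction past the threshold by edgeR (371 of 14706 genes had an unadjusted p under 0.05) or by DESeq2.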

How the results depend on the processing

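Over 80 log2 fold changes of the members (10 genes, 8 comparisons) and all alternatives, 2172 of 2370 values kept the direction of the main value, and 198, of differences no larger than 0.14, turned it. Tgfbr2 did not turn. For diabetic against non-diabetic Hif1a+/-, 1 member (Tgfbr2) was called without the filter on low counts (adjusted p = 0.0188), by DESeq2 and by edgeR without replicate 72, and 2 (Tgfbr2 and Ltbp3, adjusted p = 0.0397 and 0.0943) by limma-voom with sample weights. For diabetes averaged over genotypes, for diabetic Hif1a+/- against non-diabetic Wt and for any difference among the 4 groups, 1 member (Tgfbr2) was called without the filter and by DESeq2. When DESeq2 was rerun without each library in turn, an alternative chosen after seeing the data, between 0 and 1 members were called in these 4 comparisons. For diabetes in Hif1a+/- the call was lost without replicates 14, 32, 44 or 77, and for diabetes averaged over genotypes without replicates 25, 42, 14, 32 or 44. For diabetic Hif1a+/- against non-diabetic Wt it was lost without replicates 25, 42 or 77, and for any difference among the 4 groups without replicates 42 or 77. The cause was not tested. For pairs of correlated members the number past the threshold was between 0 and 2 when a library was left out, 2 without replicate 66.

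The count of all genes called was 0 by edgeR in each comparison. It was 129, 592, 33, 220, 445, 593, 77, 78 and 689 without the filter on low counts for, in this order, diabetes in Wt, diabetes in Hif1a+/-, genotype after non-diabetic and after diabetic pregnancy, diabetic Hif1a+/- against non-diabetic Wt, diabetes and genotype averaged, the interaction and any difference. DESeq2 called 4, 201, 1, 24, 68, 203, 7, 0 and 130 genes. limma-voom called 937 for diabetes in Hif1a+/-, 39 for diabetes averaged, 2 for diabetic Hif1a+/- against non-diabetic Wt and 1 for genotype after diabetic pregnancy. With only the groups compared, edgeR called 101 for diabetes in Hif1a+/-.

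Small differences turned with limma-voom for Ltbp2 in Wt (log2 -0.06), Ltbp3 in Wt (0.0, also with DESeq2 size factors) and Tgfb3 averaged (-0.01). Leaving out 1 library gave log2 differences by diabetes in Wt from -0.17 to 0.03 for Tgfb1, from -0.05 to 0.05 for Tgfb3, from -0.11 to 0.03 for Ltbp1, from -0.09 to 0.24 for Ltbp2 and from -0.07 to 0.07 for Ltbp3. In Hif1a+/- they ran from -0.13 to 0.03 for Tgfb1, from -0.02 to 0.05 for Tgfb3, from -0.05 to 0.08 for Tgfbr1, from -0.04 to 0.09 for Ltbp1 and from -0.10 to 0.30 for Ltbp4. Averaged over genotypes they ran from -0.09 to 0.0 for Tgfb1, from -0.01 to 0.04 for Tgfb3 and from -0.05 to 0.03 for Ltbp1. Ltbp3 between genotypes after non-diabetic pregnancy ran from -0.09 to 0.06. With DESeq2 and 1 library left out, turned values were 0.02 for Tgfb3 and Ltbp3 in Wt, 0.01 for Tgfb1 and -0.03 for Ltbp1 in Hif1a+/-, and 0.02 and 0.01 for Ltbp1 averaged. No paired analysis was possible, because the sample labels used here give no litter and the replicate numbers are those of single animals. Whether groups shared litters is not known.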
